A study of Bos taurus with 6 samples.

Results

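The genes of cholesterol synthesis and of its regulation by sterol regulatory element binding proteins (SREBPs) were examined in bovine preadipocytes that had been given bta-miR-484. The group was set by symbol and held 32 genes. These were the enzymes of the pathway, the SREBPs and the proteins that hold them back, and genes of sterol transport, esterification and efflux. Of these 32, 31 had a row under their symbol among the 23475 genes of the deposited table, and STARD4 was not analysed here. ABCG1, which encodes a sterol exporter, was listed at 0 in all 6 libraries, so that 30 genes were compared.

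The cells were isolated from subcutaneous fat of calves and transfected for 48 h, 3 samples with the bta-miR-484 agomir and 3 with the agomir NC. The agomir is a synthetic, chemically stabilised duplex that acts as extra bta-miR-484, and the agomir NC is its negative control (control cells below). The growth medium of both groups held fetal bovine serum, which carries lipoproteins. The sources used here do not say whether replicates were separate calves or parallel cultures, so the p-values measure only the spread between these samples, which may be technical.

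Expression was given as FPKM, fragment numbers scaled by transcript length and library total, with 1 value per gene and library. Such values can be compared between genes because they are per length, but they keep no read numbers, so sequencing depth is unknown. Library sums ranged from 365977 to 379361 FPKM.

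The labels call the cells adipocytes. Of 9 adipocyte markers, 3 had means under 0.5 FPKM. These were ADIPOQ (adiponectin), at a mean of 0.115 ± 0.0607 FPKM in agomir cells and 0.165 ± 0.0278 FPKM in control cells (SD, n = 3 each), and LEP and CIDEC, which were listed at 0 in 4 libraries each. The most abundant adipocyte markers were LPL, PPARG and FABP4, at means of 3.73, 3.55 and 2.39 FPKM, and the 9 together summed to between 12.2 and 13.8 FPKM in a library. The 11 fibroblast and preadipocyte markers summed to between 28650 and 29950 FPKM, led by COL3A1 at a mean of 7623 FPKM, and 1 of them, DLK1, was listed at 0 in all libraries. The markers of mature adipocytes were thus low beside those of fibroblasts and preadipocytes.

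The 6 macrophage and leukocyte markers summed to between 7.09 and 8.39 FPKM, of which CD14 made up a mean of 6.27 FPKM, while PTPRC, the pan-leukocyte marker, did not exceed 0.119 FPKM. The 4 endothelial markers summed to between 3.14 and 3.97 FPKM, of which VWF made up a mean of 3.39 FPKM, and the other 3 (PECAM1, CDH5 and KDR) had means under 0.5 FPKM. Skeletal muscle and epithelial markers all had means under 0.5 FPKM. In bulk samples, fewer cells of a type and less RNA per cell cannot be told apart.

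Cholesterol is built from acetyl-CoA through mevalonate, farnesyl diphosphate, squalene and lanosterol, and most of the enzymes are transcribed under SREBP2. When sterols in the endoplasmic reticulum are low, SCAP escorts the SREBP precursors to the Golgi, where proteases release the active factor, and when sterols are high, the INSIG proteins retain SCAP and the precursors. Liver X receptors (LXRs), which bind oxysterols, act on the opposite side and drive export through ABCA1 and ABCG1. Adipose tissue holds a large pool of the body's cholesterol, and SREBP1 takes part in the transcription of fatty acid synthesis genes.

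None of the 30 genes compared passed the thresholds used. Groups were compared on log2(FPKM + 0.5) by the two-sided moderated test of limma, fitted on all 12422 genes that averaged 0.5 FPKM or more. At limma's adjusted p of 0.05 (Benjamini-Hochberg), 0 of the 30 were called, against 0.00805% of all genes tested. At an unadjusted p of 0.05, again 0 of the 30 were under the threshold, against 10.9% of all genes tested. The adjusted p-values ranged from 0.467 to 0.9985 in limma. For 29 of the 30 genes, the 95% interval of the log2 fold change lay within a 1.5-fold change in either direction, which was so for 92.9% of all genes tested. The exception was TM7SF2.

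At an unadjusted p of 0.05, 2 of the 6 adipocyte markers that could be tested were called, where 10.9% of all genes tested were. FABP4, a fatty acid binding protein, measured 1.82, 2.33 and 1.54 FPKM in agomir cells and 3.57, 2.21 and 2.88 FPKM in control cells, with overlap (limma's adjusted p = 0.363). PPARG, the main transcription factor of adipocyte differentiation, measured 3.99, 3.69 and 3.91 FPKM in agomir cells and 3.39, 3.34 and 2.96 FPKM in control cells, without overlap (limma's adjusted p = 0.407). The FABP4 call was lost without agomir replicate 3 or agomir NC replicate 1, and the PPARG call without agomir replicate 1, agomir replicate 3 or agomir NC replicate 3. The other adipocyte markers tested were not called and lay above 0. Their log2 fold changes were 0.14 for PLIN1, 0.12 for CIDEA, 0.058 for LPL and 0.29 for CEBPA, and only in CIDEA did the groups not overlap. Of the 10 fibroblast and preadipocyte markers tested, 1 was under the same threshold, a share near that of all genes. It was DCN (decorin), with 2840, 2899 and 2850 FPKM in agomir cells and 2991, 3102 and 3248 FPKM in control cells (limma's adjusted p = 0.376). Its call was lost in 5 of the 15 alternatives, the omission of agomir replicate 1 or agomir replicate 3 among them. Quantile normalization, which sets values by rank, was another and put the log2 fold change of DCN at 0. Of the other lists, only CD68, CD14 and VWF were abundant enough to be tested, and 0 of these 3 were under the threshold in limma. The part of these marker differences in the sterol values was not tested.

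The estimates of the sterol genes were not spread evenly about 0. Of the 18 synthesis enzymes, 17 had a log2 fold change below 0 with the agomir, and the median was -0.079. Of all genes tested, 44.9% were below 0, with a median of 0.013. Among the 12 other members compared, 5 were below 0 and 7 above, with a median of 0.051. The members were chosen with results of these data known and their values share the same libraries, so these counts are a description only.

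**Figure D1:**
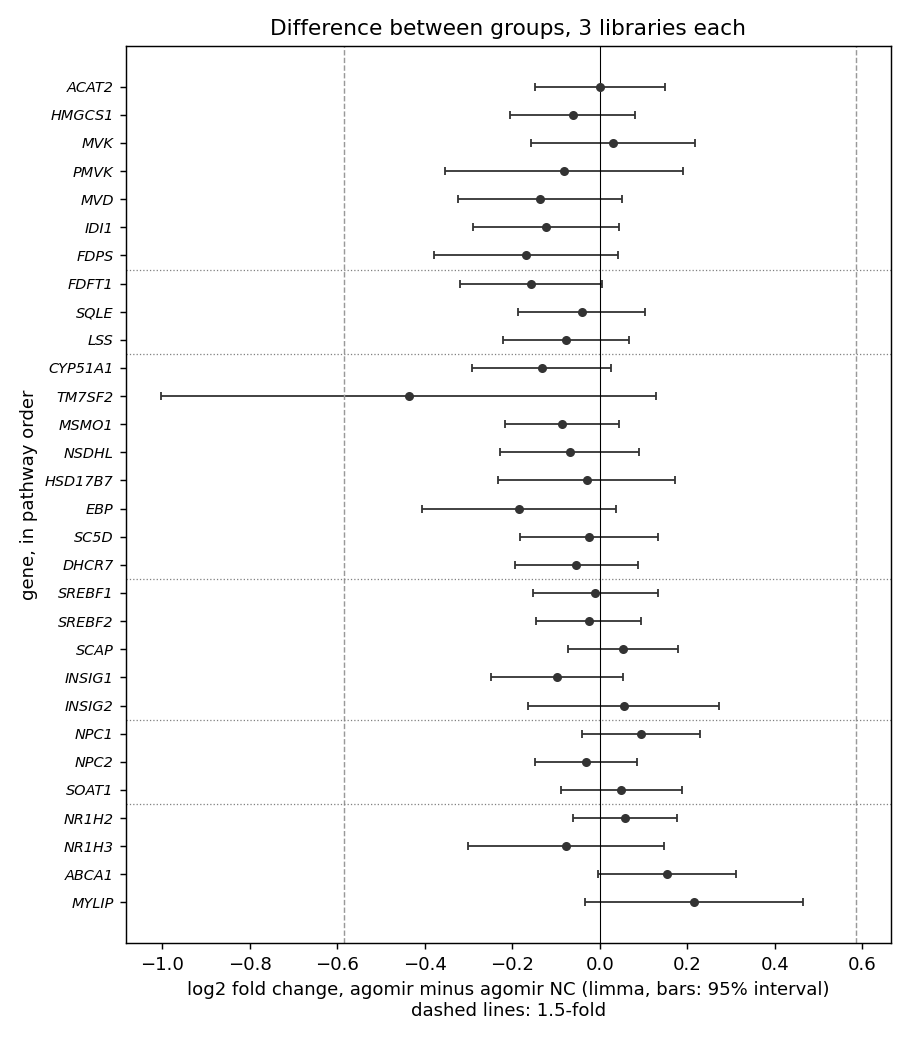
The log2 fold change of agomir over agomir NC on the log2(FPKM + 0.5) scale (horizontal axis) for the 30 genes compared, in pathway order (vertical axis), with points for limma's estimate from 3 libraries a group, bars for the 95% interval, dotted lines between role groups and dashed lines at a 1.5-fold change. Every interval includes 0, 17 of the 18 synthesis enzymes at the top lie left of 0, and only the interval of TM7SF2 crosses a dashed line.

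The agomir NC libraries differed among themselves. The 18 synthesis enzymes together summed to 408.5, 412.7 and 421.7 FPKM in the 3 agomir libraries and to 407.6, 460.7 and 449.8 FPKM in the 3 agomir NC libraries. Agomir NC replicate 1 was thus level with the agomir libraries, and agomir NC replicates 2 and 3 stood above them. As a share of all FPKM in the library, the enzymes took 0.111%, 0.112% and 0.115% with the agomir and 0.110%, 0.126% and 0.119% with the agomir NC. Agomir NC replicate 1 was the lowest in its group for 15 of the 18 enzymes, while it was the lowest in 31.6% of all genes tested. The median deviation of the enzymes from their gene means was -0.078 in agomir NC replicate 1 on the log2 scale, against 0.10 and 0.095 in agomir NC replicates 2 and 3. In the agomir libraries it was -0.057, -0.069 and -0.029. The same median over all genes tested was between -0.016 and 0.021 in every library.

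The count of members called moved when 1 library was left out. Without agomir NC replicate 1, 6 members were lower with the agomir at an unadjusted p of 0.05, where 4.80% of all genes tested were. These were CYP51A1, IDI1, INSIG1, MSMO1, MVD and TM7SF2, with log2 fold changes of -0.21, -0.20, -0.16, -0.13, -0.21 and -0.70. All 18 enzymes were then below 0, with a median of -0.12. Without agomir NC replicate 2 the same log2 fold changes were -0.074, -0.064, -0.035, -0.065, -0.070 and -0.48. In neither of these fits did a member pass the adjusted threshold. Limma's lowest adjusted p was 0.269, for CYP51A1 without agomir NC replicate 1. Without agomir NC replicate 2, 14 of the 18 enzymes were below 0, with a median of -0.065, EBP was lower and ABCA1 higher at an unadjusted p of 0.05, where 4.29% and 5.28% of all genes tested were. The fewest enzymes below 0 came without agomir replicate 1, 13 of the 18, with a median of -0.087, and FDFT1 was then the 1 member lower at that threshold, where 4.0% of all genes were. Without agomir replicate 3 it was FDPS, where 3.62% of all genes were lower. Without agomir NC replicate 3, INSIG2 and MYLIP were higher, where 5.93% of all genes were, and without agomir replicate 2 there were 0 members in either direction.

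**Figure D2:**
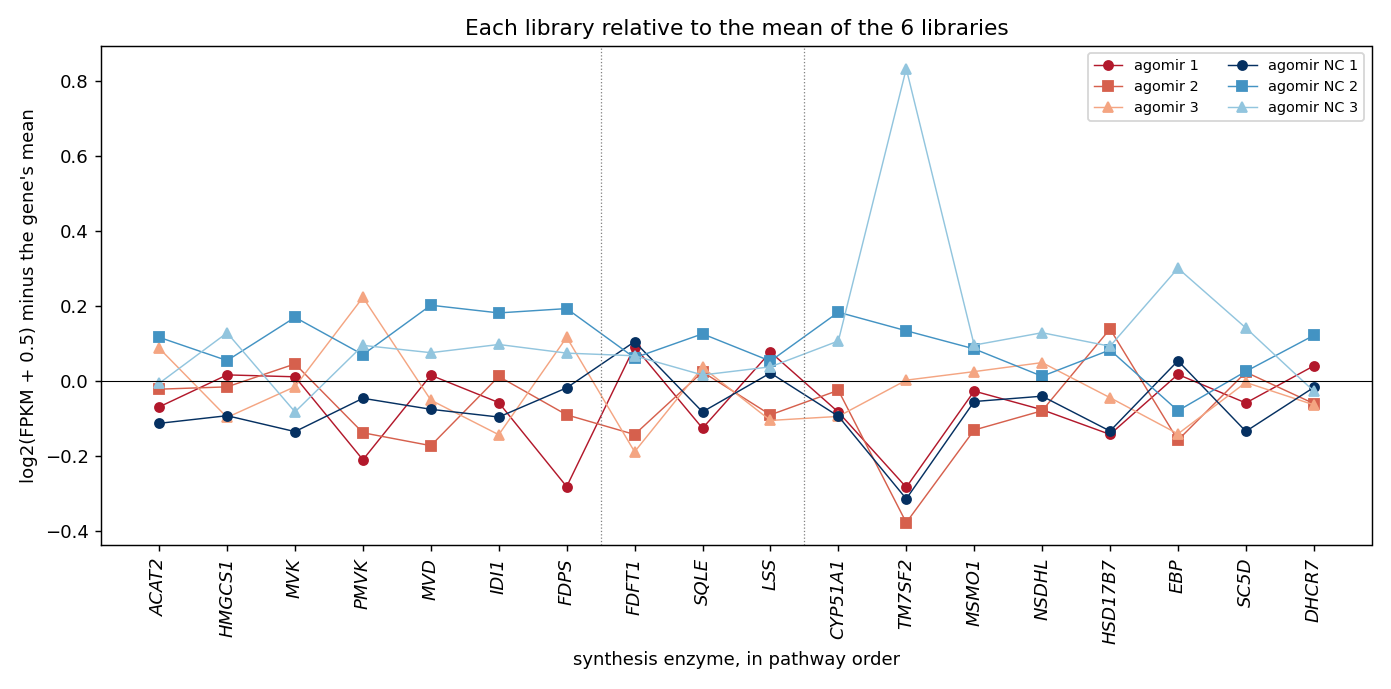
The deviation of each library from the mean of the 6 libraries on the log2(FPKM + 0.5) scale (vertical axis) for the 18 synthesis enzymes in pathway order (horizontal axis), with red points for the agomir and blue points for the agomir NC libraries, and lines that join the points of 1 library. Agomir NC replicate 1, the darkest blue, runs among the agomir libraries and is the lowest of its group for 15 of the 18 enzymes.

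The first enzymes, from acetyl-CoA to farnesyl diphosphate, were 7 genes, of which 6 were below 0, with a median log2 fold change of -0.081. HMGCS1, which condenses acetoacetyl-CoA with acetyl-CoA to HMG-CoA, measured 33.8, 33.0 and 31.2 FPKM in agomir cells and 31.3, 34.7 and 36.6 FPKM in control cells. The groups overlapped, because agomir NC replicate 1 was almost as low as the lowest agomir library. Its log2 fold change was -0.062 (standard error 0.064), with a 95% interval from -0.21 to 0.081, and it moved to -0.12 without agomir NC replicate 1 and to -0.013 without agomir NC replicate 3. ACAT2, the cytosolic thiolase that makes acetoacetyl-CoA, had nearly the same mean in both groups, 45.9 ± 2.61 FPKM in agomir cells and 45.9 ± 3.70 FPKM in control cells (SD, n = 3 each). In the annotation it overlaps TCP1, a chaperonin subunit gene with a mean of 83.2 FPKM, and whether strand was used in the estimates is not given in the sources used here.

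IDI1, the isomerase that makes dimethylallyl diphosphate, measured 29.9, 31.4 and 28.1 FPKM in agomir cells and 29.1, 35.3 and 33.3 FPKM in control cells. FDPS, which makes farnesyl diphosphate, measured 32.9, 37.6 and 43.5 FPKM in agomir cells and 39.5, 45.9 and 42.2 FPKM in control cells. Agomir replicate 1 was the low value, and the highest agomir library lay within the agomir NC range. The log2 fold change of FDPS was -0.17 (standard error 0.094), but -0.27 without agomir replicate 3 and -0.070 without agomir replicate 1. MVD, the decarboxylase, averaged 11.3 ± 0.766 FPKM in agomir cells and 12.5 ± 1.24 FPKM in control cells (SD, n = 3 each), which is -0.14 as a log2 fold change, but -0.21 without agomir NC replicate 1 and -0.070 without agomir NC replicate 2. In both kinases the groups overlapped. MVK averaged 11.2 ± 0.247 FPKM in agomir cells and 11.0 ± 1.33 FPKM in control cells, and PMVK 3.60 ± 0.683 FPKM in agomir cells and 3.80 ± 0.222 FPKM in control cells (SD, n = 3 each).

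The squalene and lanosterol steps had the enzyme with the lowest unadjusted p. FDFT1, squalene synthase, which commits farnesyl diphosphate to sterols, measured 26.5, 22.4 and 21.7 FPKM in agomir cells and 26.7, 25.9 and 26.0 FPKM in control cells. Here agomir NC replicate 1 was not low, and agomir replicate 1 stood with the agomir NC libraries. This gave a log2 fold change of -0.16 (standard error 0.073, limma's adjusted p = 0.467), with a 95% interval from -0.32 to 0.0052. Without agomir replicate 1 it was -0.24, and limma's adjusted p was 0.322, while without agomir replicate 3 it was -0.10. LSS, which closes squalene epoxide to lanosterol, likewise had agomir replicates 2 and 3 below every agomir NC library and agomir replicate 1 not, with 15.9, 14.1 and 13.9 FPKM in agomir cells and 15.2, 15.6 and 15.4 FPKM in control cells. Its log2 fold change was -0.077 (standard error 0.064), with -0.13 without agomir replicate 1 and -0.044 without agomir replicate 3.

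SQLE, squalene epoxidase, a rate-limiting enzyme of sterol synthesis, had the highest mean of the enzymes over the 6 libraries, with MSMO1 nearly equal and higher in control cells. SQLE measured 47.5, 52.7 and 53.2 FPKM in agomir cells and 48.9, 56.6 and 52.4 FPKM in control cells. The lowest value of each group was that of its replicate 1, and the groups overlapped widely. Its log2 fold change was -0.042, with a 95% interval from -0.19 to 0.10, and its sign turned without agomir replicate 1 (0.010) or without agomir NC replicate 2 (0.011). Within a library, SQLE was between 2.99 and 3.82 times the level of LSS, and the mean ratio was 3.52 ± 0.459 in agomir cells and 3.42 ± 0.211 in control cells (SD, n = 3 each).

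All 8 members from lanosterol to cholesterol were below 0, with a median log2 fold change of -0.078. LBR, which shares a step with TM7SF2 but is not among the members, had a log2 fold change of 0.067. CYP51A1, which removes the 14-alpha-methyl group of lanosterol, measured 26.0, 27.1 and 25.8 FPKM in agomir cells and 25.8, 31.4 and 29.7 FPKM in control cells. The agomir libraries lay close together, agomir NC replicate 1 lay among them, and the other agomir NC libraries were above. Their difference was a log2 fold change of -0.13 (standard error 0.071), with a 95% interval from -0.29 to 0.026. It was -0.21 without agomir NC replicate 1 and -0.074 without agomir NC replicate 2. MSMO1, the C4-methyl oxidase, averaged 50.2 ± 2.76 FPKM in agomir cells and 53.4 ± 3.08 FPKM in control cells, and NSDHL, which acts after it, 10.5 ± 0.566 FPKM in agomir cells and 11.0 ± 0.697 FPKM in control cells (SD, n = 3 each). HSD17B7, the ketoreductase of the same step, averaged 11.8 ± 1.23 FPKM in agomir cells and 12.1 ± 1.08 FPKM in control cells (SD, n = 3 each).

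EBP, the sterol isomerase, had the estimate furthest from 0 among the enzymes after that of TM7SF2, a log2 fold change of -0.19 (standard error 0.099). It measured 10.5, 9.22 and 9.34 FPKM in agomir cells and 10.8, 9.77 and 12.9 FPKM in control cells. Agomir NC replicate 3 was the high value, and the log2 fold change was -0.081 without it and -0.27 without agomir NC replicate 2. SC5D, the desaturase that follows, averaged 26.0 ± 0.761 FPKM in agomir cells and 26.5 ± 2.57 FPKM in control cells (SD, n = 3 each). DHCR7, which reduces 7-dehydrocholesterol to cholesterol, measured 17.9, 16.7 and 16.7 FPKM in agomir cells and 17.2, 19.0 and 17.1 FPKM in control cells, a log2 fold change of -0.054 (standard error 0.062). It was -0.088 without agomir replicate 1 and -0.0057 without agomir NC replicate 2.

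TM7SF2, a sterol C14-reductase, was the least abundant member above 0 and the least certain. It measured 1.06, 0.964 and 1.41 FPKM in agomir cells and 1.03, 1.59 and 2.89 FPKM in control cells. The groups overlapped, with agomir replicate 2 the lowest library and agomir NC replicate 3 the highest. Its log2 fold change was -0.44 (standard error 0.25), with a 95% interval from -1.003 to 0.13, and it ranged from -0.70 without agomir NC replicate 1 to -0.13 without agomir NC replicate 3. LBR, the nuclear envelope protein that catalyses the same step, was named for this role after its values were seen. It measured 7.54, 9.57 and 8.40 FPKM in agomir cells and 7.99, 7.93 and 8.26 FPKM in control cells, so that it exceeded TM7SF2 by 2.86 to 9.93 times in the 6 libraries.

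**Figure D3:**
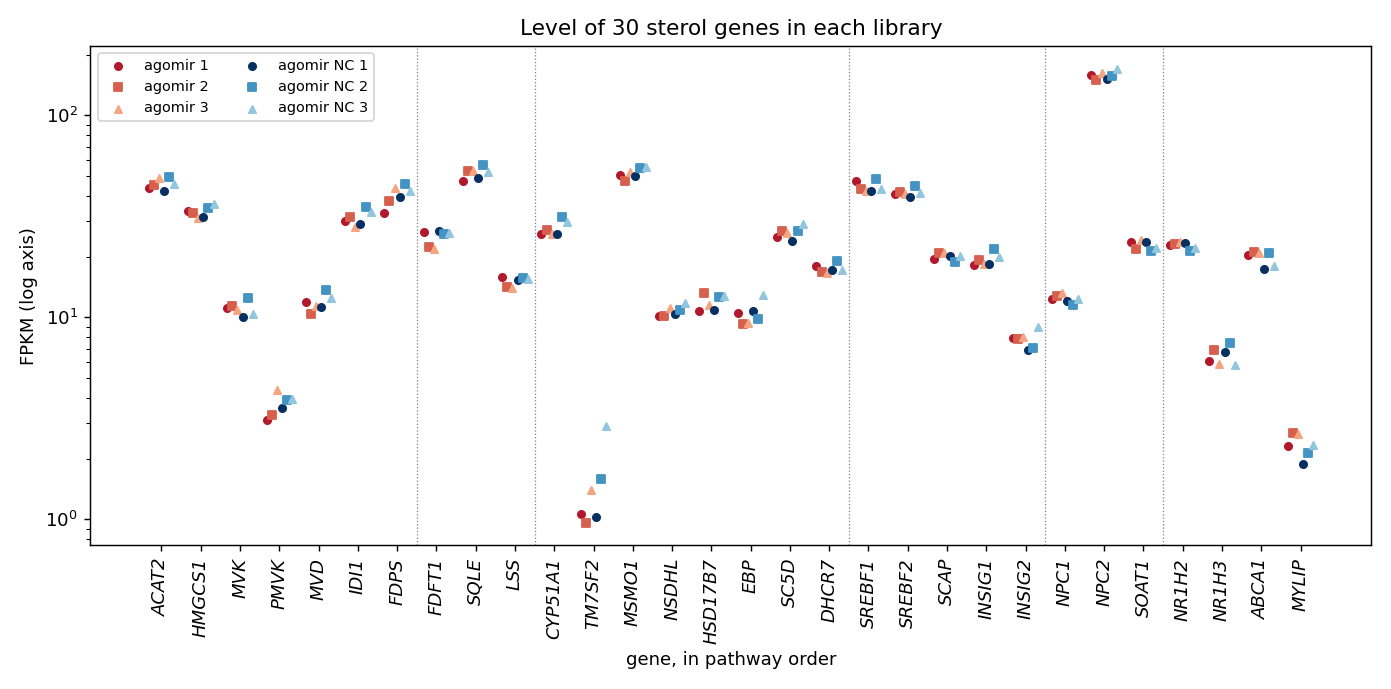
The FPKM values (vertical axis, log scale) of the 30 genes compared, in pathway order (horizontal axis), with 1 point for each of the 3 agomir libraries (red) and 3 agomir NC libraries (blue) and dotted lines between role groups. The levels run from a mean of 1.49 FPKM for TM7SF2 to 158 FPKM for NPC2, and the red and blue points overlap for every gene except NPC1.

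Among the regulators of the pathway, SREBF1, SREBF2, SCAP and INSIG2 had estimates nearer 0 than the enzyme median of -0.079. INSIG1, at -0.098, did not. The 5 genes of SREBP control had log2 fold changes between -0.098 and 0.055, and all 5 of their 95% intervals lay between -0.25 and 0.27. SREBF2, which encodes SREBP2, the main activator of sterol synthesis genes, measured 40.8, 41.9 and 40.6 FPKM in agomir cells and 39.6, 44.7 and 41.3 FPKM in control cells. The agomir libraries lay inside the agomir NC range. On the log2 scale the difference was -0.026 (standard error 0.053), with a 95% interval from -0.15 to 0.093.

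SREBF1, which encodes SREBP1, had a level near that of SREBF2, with 47.2, 43.2 and 42.1 FPKM in agomir cells and 42.4, 48.2 and 43.0 FPKM in control cells. In each group 1 library was higher than the rest. On the log2 scale the difference was -0.011 (standard error 0.064), with a 95% interval from -0.15 to 0.13. The ratio of SREBF1 to SREBF2 was 1.08 ± 0.0715 in agomir cells and 1.06 ± 0.0194 in control cells (SD, n = 3 each). In the annotation SREBF1 overlaps RAI1, a transcription regulator gene with 9.58, 9.54 and 9.56 FPKM in agomir cells and 8.91, 8.40 and 7.71 FPKM in control cells. Its groups did not overlap, and it was higher with the agomir at an unadjusted p of 0.05 but not after adjustment (limma's adjusted p = 0.394). That call was lost without agomir replicate 1, agomir replicate 3 or agomir NC replicate 3.

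SCAP, the escort of the SREBPs, measured 19.5, 20.9 and 20.9 FPKM in agomir cells and 20.0, 18.8 and 20.2 FPKM in control cells, a log2 fold change of 0.053 (standard error 0.056), with 0.021 without agomir NC replicate 2 and 0.084 without agomir replicate 1. INSIG1, itself a target of SREBPs, measured 18.2, 19.2 and 18.5 FPKM in agomir cells and 18.4, 21.8 and 19.8 FPKM in control cells. As among the enzymes, agomir NC replicate 1 lay with the agomir libraries and the other agomir NC libraries lay above them. The log2 fold change of INSIG1 was -0.098 (standard error 0.068), with a 95% interval from -0.25 to 0.054. It was -0.16 without agomir NC replicate 1 and -0.035 without agomir NC replicate 2.

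INSIG2, the homolog whose transcription does not depend on SREBPs, measured 7.95, 7.84 and 7.97 FPKM in agomir cells and 6.93, 7.05 and 9.00 FPKM in control cells. The agomir libraries were nearly equal and lay between the agomir NC libraries. Its log2 fold change was 0.055 (standard error 0.097), but it rested on single agomir NC libraries, at -0.0081 without agomir NC replicate 1, 0.0030 without replicate 2 and 0.17, under the unadjusted threshold, without replicate 3. INSIG1 exceeded INSIG2 in every library, by 2.35 ± 0.0823 times in agomir cells and by 2.65 ± 0.448 times in control cells (SD, n = 3 each, exact two-sided permutation test, p = 0.4).

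Among the genes of transport and esterification, NPC1 was the 1 member of the 30 whose groups did not overlap. It lay higher with the agomir, as did 10.9% of all genes tested, and 0 members lay lower without overlap, where 6.36% of all genes did. NPC1, the lysosomal membrane protein that exports cholesterol taken up with lipoproteins, measured 12.37, 12.8 and 13.3 FPKM in agomir cells and 12.0, 11.5 and 12.36 FPKM in control cells. The gap between the groups was small, since the lowest agomir and the highest agomir NC library were almost equal. It averaged 12.8 ± 0.441 FPKM in agomir cells and 12.0 ± 0.426 FPKM in control cells (SD, n = 3 each). As a log2 fold change this was 0.094 (standard error 0.060, limma's adjusted p = 0.610). By exact two-sided permutation p = 0.1, and groups of 3 can give no smaller p. RMC1, a gene that overlaps NPC1 in the annotation, averaged 7.85 ± 0.451 FPKM in agomir cells and 7.87 ± 0.366 FPKM in control cells (SD, n = 3 each).

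NPC2, the soluble lysosomal protein that hands cholesterol to NPC1, was by far the most abundant member, with 157.5, 149.6 and 161.7 FPKM in agomir cells and 152.1, 157.1 and 170.3 FPKM in control cells. The groups overlapped, with a log2 fold change of -0.032 (standard error 0.052). It exceeded NPC1 by 12.2 ± 0.532 times in agomir cells and by 13.4 ± 0.622 times in control cells (SD, n = 3 each, exact two-sided permutation test, p = 0.2). SOAT1, which esterifies cholesterol for storage, averaged 23.1 ± 1.27 FPKM in agomir cells and 22.4 ± 1.21 FPKM in control cells (SD, n = 3 each), which is 0.049 as a log2 fold change, with 0.017 without agomir NC replicate 2 and 0.094 without agomir replicate 2.

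On the side of LXR and efflux, 3 of the 4 genes compared were above 0, with a median log2 fold change of 0.11. ABCA1, the transporter that loads cholesterol onto apolipoproteins, measured 20.3, 21.2 and 20.8 FPKM in agomir cells and 17.3, 20.8 and 17.9 FPKM in control cells. Agomir NC replicate 2 lay among the agomir libraries, and the other agomir NC libraries were below. The log2 fold change was 0.15 (standard error 0.070, limma's adjusted p = 0.467), with a 95% interval from -0.0045 to 0.31. It was 0.23 without agomir NC replicate 2 and 0.10 without agomir NC replicate 1. MYLIP, an LXR target that encodes a ubiquitin ligase, measured 2.30, 2.68 and 2.65 FPKM in agomir cells and 1.89, 2.13 and 2.34 FPKM in control cells. Only the lowest agomir and the highest agomir NC library crossed. Its log2 fold change was 0.22 (standard error 0.11), the largest of the members above 0.

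The groups of both receptors overlapped. NR1H2, which encodes the widely expressed LXR-beta, averaged 23.2 ± 0.355 FPKM in agomir cells and 22.3 ± 0.9998 FPKM in control cells (SD, n = 3 each), which is 0.058 on the log2 scale (standard error 0.053), with 0.027 without agomir NC replicate 2 and 0.090 without agomir NC replicate 1. NR1H3, which encodes LXR-alpha, was lower, with 6.05, 6.86 and 5.91 FPKM in agomir cells and 6.75, 7.45 and 5.81 FPKM in control cells. Its groups overlapped, with a log2 fold change of -0.078 (standard error 0.10), which was -0.17 without agomir NC replicate 3 and -0.00013 without agomir NC replicate 2. NR1H2 exceeded NR1H3 by between 2.86 and 3.99 times in the 6 libraries. ABCG1 was at 0 in the same libraries in which ABCA1 was near 20 FPKM, and a listed 0 can be a failed estimate as well as an unexpressed gene.

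Ordered by mean FPKM over the 6 libraries, NPC2 at 158 FPKM was followed by SQLE at 51.9, MSMO1 at 51.8, ACAT2 at 45.9, SREBF1 at 44.3, SREBF2 at 41.5 and FDPS at 40.3 FPKM. After NPC2, the range of each of these genes over the 6 libraries overlapped that of the next. At the low end, NR1H3 at 6.47 FPKM was followed by PMVK at 3.701, MYLIP at 2.33 and TM7SF2 at 1.49 FPKM, and only the ranges of MYLIP and TM7SF2 overlapped. The median SD within a group was 0.0983 on the log2 scale over the members and 0.0986 over all genes tested.

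A wider list of 58 symbols of sterol metabolism gave 50 genes to compare, UBXD8 being another name of FAF2. At an unadjusted p of 0.05, 5 were higher with the agomir, where 6.63% of all genes tested were, and 2 were lower, where 4.31% were. At an adjusted p of 0.05 there were 0, with limma's lowest at 0.306. The median log2 fold change of the 50 was 0.015. The scaling moved these counts. Under median-ratio scaling 5 were higher and 6 lower, where 5.29% and 5.68% of all genes were, with a median of -0.00061. Under quantile normalization 4 were higher and 6 lower, where 5.60% and 5.06% were, with a median of -0.0045.

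Of 3 further genes of synthesis and SREBP2 response compared, 0 had an unadjusted p under 0.05 in limma, and 1 had groups that did not overlap, where 17.2% of all genes tested did not. FAXDC2, a fatty acid hydroxylase domain gene, was lower in all agomir libraries than in any control library and averaged 6.35 ± 0.293 FPKM in agomir cells and 7.06 ± 0.125 FPKM in control cells (SD, n = 3 each), with limma's adjusted p at 0.502.

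Among 10 genes of SREBP processing and sterol-regulated protein turnover, 1 had an unadjusted p under 0.05, where 10.9% of all genes tested did. MBTPS1, the site-1 protease that makes the first cut of the SREBPs, measured 25.7, 25.3 and 25.9 FPKM in agomir cells and 27.0, 27.5 and 28.3 FPKM in control cells. The groups did not overlap, and the log2 fold change was -0.10 (standard error 0.047, limma's adjusted p = 0.456). Its unadjusted p lay just under the threshold, and that call was lost in 11 of the 15 alternatives, including the omission of any 1 of the 6 libraries.

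Of 14 genes of the isoprenoid branches, which use farnesyl diphosphate for protein prenylation, dolichol and ubiquinone, 2 were higher with the agomir at an unadjusted p of 0.05, where 6.63% of all genes tested were, and 0 were lower. FNTA, the alpha subunit shared by farnesyltransferase and a related prenyltransferase, measured 46.4, 47.6 and 50.0 FPKM in agomir cells and 44.5, 36.8 and 42.0 FPKM in control cells, a log2 fold change of 0.22 (standard error 0.069, limma's adjusted p = 0.330), but 0.15 without agomir NC replicate 2. GGPS1, which makes geranylgeranyl diphosphate, measured 11.7, 11.3 and 11.0 FPKM in agomir cells and 10.4, 6.25 and 9.83 FPKM in control cells. Agomir NC replicate 2 was the low value, and the log2 fold change of 0.37 (standard error 0.15) was 0.16 without it. The call of GGPS1 was lost in 6 of the 15 alternatives, among them the omission of agomir NC replicate 2 or of any agomir library.

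Of 10 genes of oxysterol metabolism and LXR function, 3 were higher and 1 was lower with the agomir at an unadjusted p of 0.05, where 6.63% and 4.31% of all genes tested were. CYP27A1, the sterol 27-hydroxylase, measured 3.701, 4.38 and 3.89 FPKM in agomir cells and 5.21, 5.24 and 4.73 FPKM in control cells, a log2 fold change of -0.31 (standard error 0.090, limma's adjusted p = 0.310). CYP7B1, the oxysterol 7-alpha-hydroxylase that acts on its product, measured 12.0, 13.6 and 13.0 FPKM in agomir cells and 10.3, 11.1 and 11.0 FPKM in control cells, a log2 fold change of 0.24 (standard error 0.067, limma's adjusted p = 0.306). The groups did not overlap in either gene.

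RXRB, a partner receptor of the LXRs, measured 14.0, 13.7 and 17.0 FPKM in agomir cells and 12.1, 12.4 and 13.0 FPKM in control cells. Agomir replicate 3 was the high value, and the log2 fold change of 0.24 (standard error 0.083) was 0.15 without it. Its call was lost there and without agomir NC replicate 1. NCOR1, a corepressor of nuclear receptors, measured 24.5, 25.7 and 24.7 FPKM in agomir cells and 23.9, 22.6 and 20.1 FPKM in control cells, a log2 fold change of 0.17 (standard error 0.066), but 0.10 without agomir NC replicate 3. Its call was lost there, without agomir replicate 2 or 3, under quantile normalization and with no variance trend. RXRA, the other RXR listed, averaged 14.6 ± 0.391 FPKM in agomir cells and 13.4 ± 0.509 FPKM in control cells (SD, n = 3 each), without overlap and with limma's adjusted p at 0.502.

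Of 13 genes of sterol transport and storage, 0 had an unadjusted p under 0.05 in limma, and 3 had groups that did not overlap, where 17.2% of all genes tested did not. SCARB1, the receptor for high-density lipoprotein, averaged 26.3 ± 0.564 FPKM in agomir cells and 28.4 ± 0.938 FPKM in control cells, and OSBPL2, an oxysterol binding protein relative, 21.4 ± 0.112 FPKM in agomir cells and 22.9 ± 1.05 FPKM in control cells (SD, n = 3 each). GRAMD1A, which moves sterol from the plasma membrane to the endoplasmic reticulum, averaged 7.17 ± 0.313 FPKM in agomir cells and 6.53 ± 0.197 FPKM in control cells (SD, n = 3 each). Limma's adjusted p was 0.4595 for SCARB1, 0.560 for OSBPL2 and 0.562 for GRAMD1A.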

How the data were processed

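The table the authors deposited holds 1 FPKM value per gene for each of the 6 libraries. The submitters' processing notes name fastp, HISAT2, StringTie and the build ARS-UCD1.2, without versions or roles. Whole reads could not be recovered from low values (at most 17 of up to 3060 low genes in a pair of libraries had log2 ratios within the same 0.002), so no count test was run. All genes averaging at least 0.5 FPKM were transformed as log2(FPKM + 0.5), which understates the change of low genes. Groups were compared with limma 3.58.1 in R 4.3.3 with a variance trend, after the code had been tested on simulated data, and p-values were adjusted over all 12422 genes by the Benjamini-Hochberg method. Exact permutation tests used the 20 labelings of the libraries. The members, lists and alternatives were chosen with earlier results of these data known. Genes were named by role, by an unadjusted p under 0.05 or by groups that did not overlap. Some genes of the wider list are not reported here and enter none of its counts. RefSeq's ARS-UCD2.0 table, which held all 32 symbols, gave overlapping genes, but it is of another build, so no coordinates are printed. The alternatives were other pseudocounts (0.1 and 1), filters (none, and a mean of 1 FPKM) and scalings (median-ratio and quantile), a fit with no trend, weighted libraries, a replicate block and the omission of each library.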

Additional observations from a re-analysis of the deposited data

How the results depend on the processing

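The count of members under limma's adjusted p of 0.05 was 0 in every setting run. Those higher at an unadjusted p of 0.05 were 0 in the reported setting, 1 when the variance trend was dropped (MYLIP), 1 with the replicate block (ABCA1), and 0 to 2 with 1 library left out, where 6.12%, 5.94% and 4.47% to 6.68% of all genes were. Those lower were 0, 1 with median-ratio scaling and 1 with quantile normalization (FDFT1 in both), 3 with the replicate block (FDFT1, FDPS and TM7SF2), and 0 to 6 with 1 library left out, where 5.68%, 5.06%, 4.20% and 3.08% to 4.80% of all genes were. Members whose groups did not overlap were 1, and 1 to 10 with 1 library left out, where 25.6% to 29.3% of all genes tested did not overlap. The median log2 fold change of the members was -0.048 and ranged from -0.089 to -0.011 with 1 library left out. Under median-ratio scaling it was -0.064, where the median of all genes was -0.0020. Over all genes, 1 passed the adjusted threshold in the reported setting, while 0 passed with no filter on low values, 0 when the variance trend was dropped and 0 under the replicate block (1604, 1249 and 1260 genes had an unadjusted p under 0.05 in limma there), and 0 to 2 with 1 library left out.

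Of 450 values of single members under the alternatives, 431 kept their direction and 19 turned, none of them past the threshold. ACAT2 turned with array weights (0.012), as did RMC1 (0.0027). DCN was at 0 under quantile normalization, where equal ranks receive equal values. With 1 library left out, the log2 fold changes ranged from -0.0081 to 0.17 for INSIG2, -0.030 to 0.12 for MVK, -0.065 to 0.022 for SREBF2, -0.059 to 0.047 for SREBF1, -0.093 to 0.011 for SQLE, -0.066 to 0.015 for NPC2, -0.097 to 0.041 for SC5D, -0.11 to 0.033 for HSD17B7, -0.056 to 0.058 for ACAT2, -0.21 to 0.0027 for PMVK, -0.017 to 0.15 for LBR and -0.049 to 0.030 for RMC1. They kept their sign but moved by over 1.5 times for IDI1 (-0.20 to -0.064), MSMO1 (-0.13 to -0.043) and NSDHL (-0.11 to -0.022), beside those given with their values. Beyond the fewer libraries or genes that enter, the cause was not tested. The deviations of same-numbered libraries correlated at -0.051, 0.053 and 0.039 across genes. Such correlations over all genes cannot decide whether same-numbered samples were paired, and the sources used here do not say. In the wider list, 3 to 6 genes were higher and 1 to 6 lower over all settings. Without a known depth, little can be said of TM7SF2 and ABCG1.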
